A study of Homo sapiens with 6 samples.

Results

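The cyclophilins are peptidylprolyl isomerases, enzymes that turn the bond before proline and so help proteins fold, and PPIB (cyclophilin B) was examined here together with 9 relatives in an ovarian carcinoma line. The 10 genes were PPIA, PPIB, PPIC, PPID, PPIE, PPIF, PPIG, PPIH, PPIL1 and PPIL2, and every probe that the platform annotation gave to any of them was taken, 17 of the 48801 probes on the array. The family was picked for the fall of PPIB in the contrast described here, so the PPIB values below are a description and carry no test. The relatives entered by their family name, but the list of members was drawn up with earlier results of these data known.

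The cells were IGROV-1, an established human ovarian carcinoma line, grown for 24 h in medium mixed 1:1 with ascites. In the CpG ascites group (3 arrays) the fluid came from tumour-bearing mice given CpG-ODN intraperitoneally at 20 µg per mouse, a synthetic DNA recognised by Toll-like receptor 9. In the saline ascites group (3 arrays) the mice had received saline. The mice of both groups carried established IGROV-1 ascites, so all 6 samples were exposed to fluid from tumour-bearing animals. The labels give dosing either once or on 3 consecutive days without saying which ascites came from which schedule, and they leave unsaid whether replicates were separate cultures or fluids of separate mice. The p-values therefore describe variation among these arrays, part or all of which may be technical.

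Total RNA was hybridised to Illumina bead arrays, and each value below is a log2 intensity after background correction and quantile normalization unless it is called a raw intensity. Mean raw intensity was 587 to 788 per array and 13303 to 13835 probes lay above background (detection p under 0.01). CpG ascites replicate 1 stood apart, with Pearson correlations across probes of 0.948 to 0.958 with the other arrays, against 0.978 to 0.992 among the other 5. The change at each tested cyclophilin probe is therefore also given without it. KRT19, EPCAM, PAX8 and FOLR1 were above background on all 6 arrays, whereas KRT8 and MUC16, markers of the same list of 8, were on none. Of 7 leukocyte markers on the array 1 to 2 were above background on an array. PTPRC, CD3E, CD14, ITGAM and CD163 were detected on no array and CD68 on all 6, and the summed raw intensity of the markers ran from 3297 to 4981 in CpG ascites and from 3564 to 4193 in saline ascites. None of 5 fibroblast markers was detected on any array, and of 4 mesothelial markers 0 to 2 were.

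Cyclophilins share a related domain, which in many but not all of them is catalytic and binds the drug cyclosporin, and they differ in where they act. PPIB and PPIC enter the secretory pathway, PPIA fills the cytosol, PPID assists HSP90, PPIF sits in the mitochondrial matrix, and PPIE, PPIG, PPIH, PPIL1 and PPIL2 are nuclear and mostly bound to the splicing machinery. PPIB assists the folding of secreted proteins and, with P3H1 and CRTAP, the 3-hydroxylation of proline in collagen. PPIA and PPIB are also used as reference genes in expression work.

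Of the 17 probes, 11 were above background on at least 3 of the 6 arrays and were tested, and they covered 8 of the 10 genes. No PPIF or PPIL2 probe passed this filter. No probe on the whole array had an adjusted p under 0.05 (limma, Benjamini-Hochberg, 0 of 13713, a background of 0%), while 818 lower and 941 higher probes had an unadjusted p under 0.05. With CpG ascites replicate 1 left out, 18 probes were lower and 3 higher after adjustment, and none of the relatives was among them.

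PPIB was represented by a single probe, so whether another part of its transcript behaves alike was not measured on this array. The gene lies at chr15:64155817-64163022 (GRCh38.p14, RefSeq annotation) on the minus strand. Its raw intensity was 761, 1246 and 783 in CpG ascites replicates 1 to 3, against 2148, 2538 and 2285 in saline ascites. After normalization the log2 intensity was 9.43, 9.88 and 9.75 in CpG ascites, against 11.18, 11.20 and 11.01 in saline ascites. The groups lay far apart: the highest CpG array was 1.12 below the lowest saline array, whereas the arrays within a group differed by less than that. The means were 9.69 ± 0.23 in CpG ascites and 11.13 ± 0.10 in saline ascites (SD, n = 3 each), a log2 difference of -1.44 or 0.369 of the saline level. Counted over all 13713 tested probes, 14 (0.102%), PPIB included, had a difference as low as this or lower, and 107 (0.780%) lay below -1. CpG ascites replicate 1 had 189 probes over 4-fold below their saline mean, against 0 on replicate 2 and 1 on replicate 3. On each of these arrays 0 probes lay over 4-fold above it, so these counts of low probes may rest in part on replicate 1.

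The PPIB values did not rest on the array that stood apart. Against the saline mean, PPIB was lower by a log2 of -1.70 on CpG ascites replicate 1, -1.24 on replicate 2 and -1.38 on replicate 3. The log2 difference was -1.31 without replicate 1, and over all alternatives run it lay between -1.54 and -1.31. The arrays measured pooled RNA of a culture, in which fewer cells carrying the transcript and less transcript per cell cannot be told apart.

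**Figure D1:**
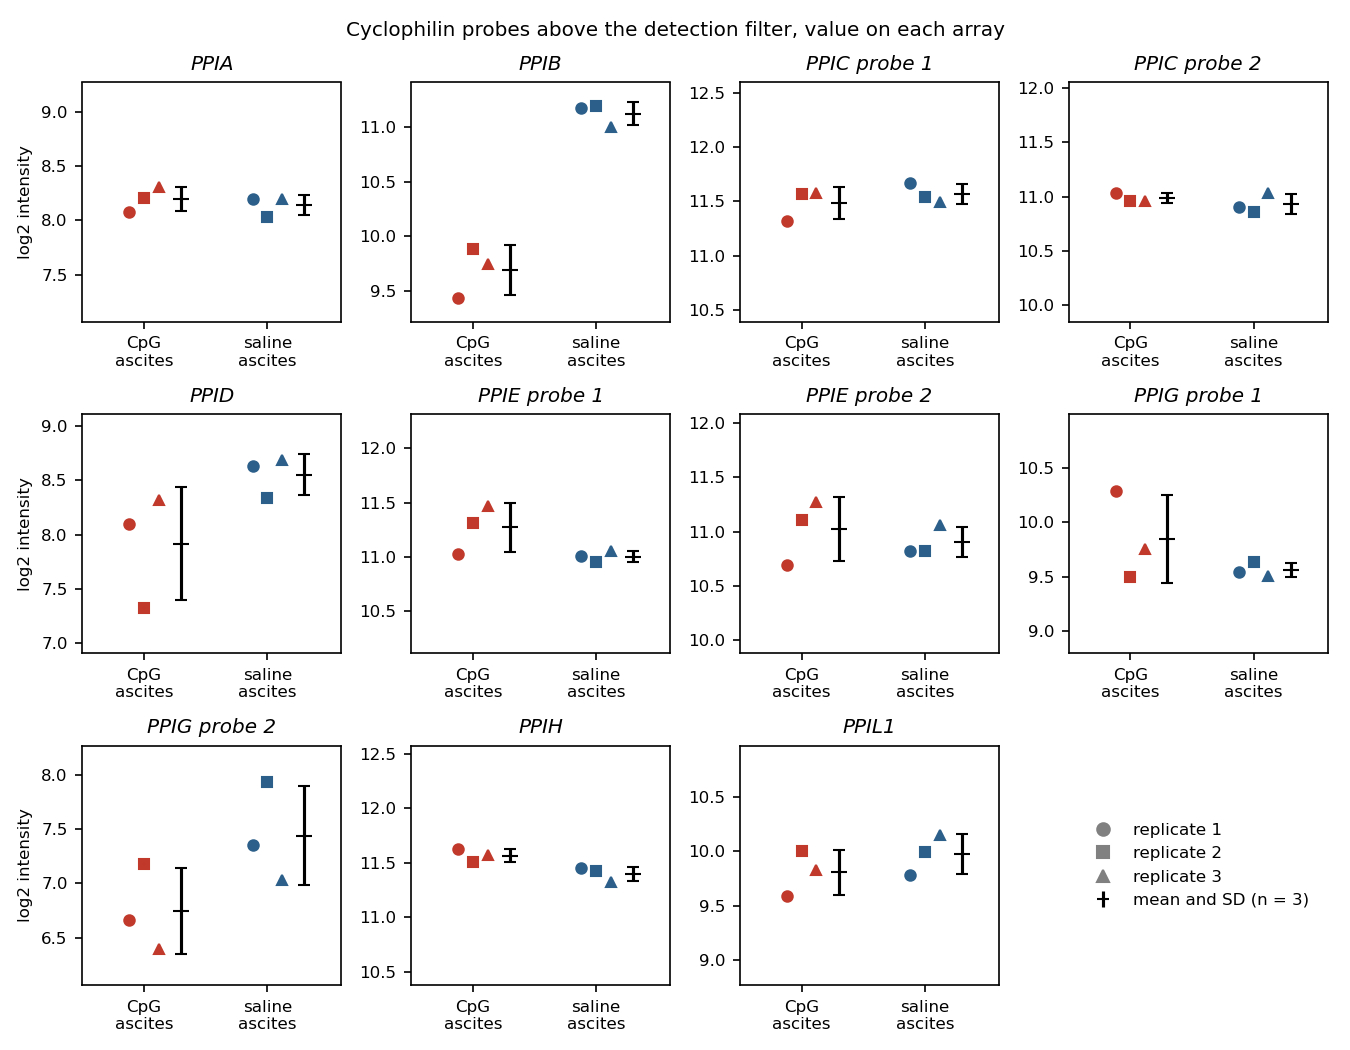
Log2 intensity (y axis) at each of the 11 cyclophilin probes above the detection filter, on the 3 CpG ascites arrays (red) and the 3 saline ascites arrays (blue), with the mean and SD beside each group; symbols mark the replicate and every panel spans the same range of log2 units. PPIB averages 9.69 in CpG ascites and 11.13 in saline ascites, while the groups overlap or nearly touch at the other probes.

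PPIC (cyclophilin C), the other family member of the secretory pathway, had values close to the saline level on both of its probes. Its brighter probe read 11.32, 11.57 and 11.58 in CpG ascites, against 11.67, 11.54 and 11.49 in saline ascites, a log2 change of -0.08 ± 0.13 (SE, adjusted p = 0.814, limma). The second PPIC probe read 11.04, 10.96 and 10.96 in CpG ascites, against 10.90, 10.86 and 11.03 in saline ascites, a change of 0.05 ± 0.12 (SE, adjusted p = 0.865, limma). The groups overlapped at both probes, and the 95% intervals of the change ran from -0.39 to 0.23 and from -0.22 to 0.33. Without CpG ascites replicate 1 the change was 0.01 at the brighter probe, so its sign is not settled, and 0.03 at the second. With each array left out in turn the second probe's change ran from 0.02 to 0.10.

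The bases upstream of both secretory cyclophilin genes are shown because PPIB had lower values and PPIC had not. Each line holds the 250 bases before the RefSeq gene start (GRCh38.p14), 5′ to 3′ on the gene's own strand, with capitals marking 3 motifs on either strand. The motif CCAAT and the motif CCACG are the ends of the endoplasmic reticulum stress element, the motif GGGCGG is the GC box, and matches may overlap each other. Only these ends were searched for, without the spacing that the whole element has, so no match stands for the whole element. In the PPIB window CCAAT began 202 bases before the gene start, and the CCACG on the same strand 172 bases before it. PPIB lies on the minus strand at chr15:64163023-64163272 and PPIC on the minus strand at chr5:123036726-123036975.
PPIB: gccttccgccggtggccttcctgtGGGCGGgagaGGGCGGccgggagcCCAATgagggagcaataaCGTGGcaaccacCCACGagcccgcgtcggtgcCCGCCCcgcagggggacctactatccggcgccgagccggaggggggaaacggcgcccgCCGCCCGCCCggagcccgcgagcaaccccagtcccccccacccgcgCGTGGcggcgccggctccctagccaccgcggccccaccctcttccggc
PPIC: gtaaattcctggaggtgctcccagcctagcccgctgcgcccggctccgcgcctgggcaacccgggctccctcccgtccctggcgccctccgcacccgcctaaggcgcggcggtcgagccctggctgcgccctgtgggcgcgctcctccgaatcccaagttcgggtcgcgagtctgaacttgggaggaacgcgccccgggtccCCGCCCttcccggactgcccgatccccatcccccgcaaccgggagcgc
The PPIB window held CCAAT 1 time, CCACG 3 times and GGGCGG 5 times, and the PPIC window held only GGGCGG, 1 time. Over the same window of 35116 RefSeq gene starts, CCAAT occurred at least 1 time in 32.0%, CCACG in 33.5% and GGGCGG in 42.6%. Having any match is thus common for each motif, but how often 3 or 5 copies occur was not counted. Among the other 6 family genes with an upstream sequence, CCACG was found for PPIA, PPID, PPIF, PPIH and PPIL2, and CCAAT for PPIA, PPIF and PPIL1. A match is a stretch of letters and not a measured binding site, and a link to the PPIB values was not tested.

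PPIA (cyclophilin A), the cytosolic founding member, also had values near the saline level. Its probe read 8.08, 8.20 and 8.30 in CpG ascites, against 8.20, 8.03 and 8.20 in saline ascites. The arrays of the groups were intermingled, with a log2 change of 0.05 ± 0.13 (SE, adjusted p = 0.877, limma) and a 95% interval of -0.24 to 0.35. The change was 0.11 without CpG ascites replicate 1. The sign turned when CpG ascites replicate 3 or saline ascites replicate 2 was left out, to -0.0027 and -0.0033. PPIA has many near-identical copies in the genome, and a probe named for the copy PPIAL4A, singled out after its values were seen, read 12.51, 12.69 and 12.59 in CpG ascites, against 12.74, 12.71 and 12.83 in saline ascites. That probe had a change of -0.16 ± 0.12 (SE, adjusted p = 0.586, limma), and which of these transcripts each probe binds cannot be told from the files used here. The other 3 probes named for PPIAL4 copies were above background on no array.

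PPID, a cochaperone that docks on HSP90 through its repeat domain, had the lowest change among the relatives when each gene is read at its brightest probe. That probe read 8.10, 7.33 and 8.32 in CpG ascites, against 8.63, 8.33 and 8.69 in saline ascites. The groups were separated by only 0.02, between CpG ascites replicate 3 and saline ascites replicate 2, and CpG ascites replicate 2 lay well below the rest. The log2 change was -0.63 ± 0.26 (SE, 95% interval -1.24 to -0.03) and did not pass the test over all probes (adjusted p = 0.371, limma). The change was -0.34 without CpG ascites replicate 2 and -0.73 without replicate 1. A second PPID probe was above background on no array.

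Among the splicing cyclophilins, PPIH, a subunit of the U4/U6 snRNP, had slightly higher values in CpG ascites. Its probe read 11.63, 11.50 and 11.57 in CpG ascites, against 11.45, 11.42 and 11.32 in saline ascites. The groups did not overlap, by a margin of 0.05, but the log2 change of 0.17 ± 0.12 (SE, 95% interval -0.11 to 0.44) did not pass (adjusted p = 0.565, limma) and was 0.14 without CpG ascites replicate 1. PPIL1, which joins the activated spliceosome through SNW1, read 9.59, 10.00 and 9.83 in CpG ascites, against 9.78, 9.99 and 10.15 in saline ascites. The groups overlapped, with a change of -0.17 ± 0.16 (SE, 95% interval -0.54 to 0.21, adjusted p = 0.675, limma). Single arrays moved that change: it was -0.06 without CpG ascites replicate 1, -0.27 without CpG ascites replicate 2, -0.26 without saline ascites replicate 1 and -0.08 without saline ascites replicate 3.

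PPIE, which carries an RNA-binding domain and sits in the activated spliceosome, had 2 probes above background. The brighter read 11.03, 11.31 and 11.47 in CpG ascites, against 11.01, 10.96 and 11.05 in saline ascites, a log2 change of 0.27 ± 0.15 (SE, adjusted p = 0.474, limma). The other read 10.69, 11.11 and 11.27 in CpG ascites, against 10.82, 10.82 and 11.06 in saline ascites, a change of 0.12 ± 0.18 (SE, adjusted p = 0.784, limma). On both probes CpG ascites replicates 2 and 3 lay above the saline arrays and replicate 1 lay among or below them. Without replicate 1 the changes were 0.39 (adjusted p = 0.222, limma) and 0.29 (adjusted p = 0.383, limma), and without replicate 3 they were 0.17 and 0.00032. The second probe's change was 0.08 without CpG ascites replicate 2 and 0.20 without saline ascites replicate 3, so its size rests on single arrays. The third PPIE probe was above background on no array.

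The probes of PPIG, a large nuclear cyclophilin with an SR-like domain that meets RNA polymerase II, pointed in opposite directions. The brighter read 10.29, 9.50 and 9.76 in CpG ascites, against 9.54, 9.63 and 9.51 in saline ascites, a log2 change of 0.29 ± 0.21 (SE, adjusted p = 0.573, limma). That difference lay mostly in CpG ascites replicate 1, without which it was 0.07, and it was 0.46 without replicate 2. The dimmer read 6.66, 7.18 and 6.40 in CpG ascites, against 7.36, 7.93 and 7.03 in saline ascites, a change of -0.69 ± 0.28 (SE, adjusted p = 0.367, limma).

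The dimmer PPIG probe was above background on 1 of 3 CpG arrays and on 3 of 3 saline arrays, and its groups overlapped. Its 3 saline arrays alone met the detection filter, which favours lower CpG values at this probe. Its change was -0.65 without CpG ascites replicate 1, -0.45 without saline ascites replicate 2 and -0.41 with no background correction or with the authors' values. The changes at the PPIG probes differed by 0.98 (brighter minus dimmer). An exact two-sided permutation test over the arrays gave p = 0.2, where 0.1 is the smallest that 3 against 3 arrays allow. The same test was run for the probe pairs of PPIC and PPIE, giving exact p = 0.5 and p = 0.1. After Benjamini-Hochberg adjustment over these 3 pairs the permutation p was 0.3 for PPIE and PPIG and 0.5 for PPIC. The threshold used for single probes lies below that smallest value, so no pair could have passed it. The test therefore cannot decide whether the probes of a gene differ. The PPIG pair also holds the dimmer probe, whose lower CpG values the detection filter favoured, and no conclusion is drawn from it.

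PPIF (cyclophilin D), the mitochondrial regulator of the permeability transition, had raw intensities of 170.5, 174.8 and 194.3 in CpG ascites, against 173.2, 165.2 and 176.6 in saline ascites. Its probe passed the detection limit on CpG ascites replicate 3 and on no other array, so no change is given. The 3 probes of PPIL2, a U-box protein of the spliceosome, had raw intensities of 84.6 to 143.4 in CpG ascites and 101.7 to 142.7 in saline ascites. None of them was above background on any array, and these values bound nothing beyond the detection limit.

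**Figure D2:**
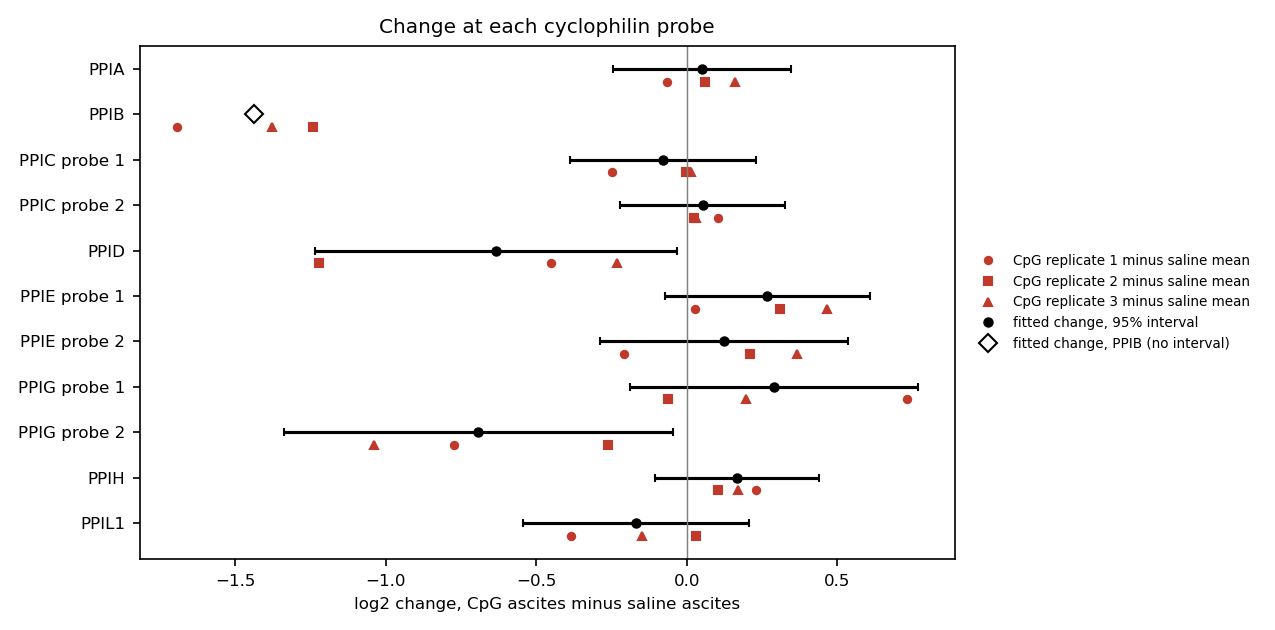
Log2 change in CpG ascites minus saline ascites (x axis) at each tested cyclophilin probe: black points are fitted changes with 95% intervals, red symbols are the 3 CpG arrays minus the saline mean, and PPIB, chosen by its change, is an open diamond at -1.44 without an interval. The fitted changes of the relatives lie between -0.69, at the dimmer PPIG probe, and 0.29, at the brighter one.

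Counted by gene, with the brightest tested probe standing for each, 3 of the 7 relatives lay below the saline mean and 4 above it. Their median log2 change was 0.05 and the range -0.63 to 0.29, against a median of 0.01 over all 9211 genes measured. Over all tested probes, 50.1% lay below the saline mean. The CpG and saline arrays did not overlap for 1 relative with lower values (PPID) and 1 with higher values (PPIH). Over all tested probes 9.82% did not overlap with CpG lower and 10.9% with CpG higher, 20.7% in all. Of the 10 relatives' probes, those of PPID and the dimmer PPIG had an unadjusted p under 0.05 with lower values, against 5.97% of all tested probes in that direction, and 0 had one with higher values, against 6.86%. The 3 saline arrays sufficed to carry the dimmer PPIG probe past the detection filter, so its lower value was favoured by that filter. Without CpG ascites replicate 1, 2 of the 7 relatives lay below the saline mean and their median was 0.07. The relatives' median differed from array to array: it was -0.06, 0.03 and 0.16 on CpG ascites replicates 1 to 3, relative to the saline mean of each gene.

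Of 7 further cyclophilins, 5 were measured, PPIL3, PPWD1, NKTR, RANBP2 and CWC27. Of these, each at its brightest probe, 4 had lower and 1 had higher values, with a median log2 change of -0.04 and 0 past the test. PPIL3 had -0.04 ± 0.12 on its brighter probe and -0.33 ± 0.12 on the other (SE, adjusted p = 0.908 and 0.348, limma). These PPIL3 values were singled out after they were seen. RANBP2, a nuclear pore protein with a cyclophilin domain, had 7.08 ± 0.32 in CpG ascites and 7.62 ± 0.31 in saline ascites (SD, n = 3 each; adjusted p = 0.365, limma). NKTR, a large cyclophilin first known from natural killer cells, had 11.04 ± 0.15 in CpG ascites and 10.89 ± 0.03 in saline ascites (SD, n = 3 each; adjusted p = 0.638, limma). The FKBP family, the other immunophilins, which bind FK506, had 11 measured genes, 5 with lower and 6 with higher values and 0 past the test. Among them FKBP15 had a log2 change of 0.65 ± 0.25 (SE) and FKBP4, which like PPID docks on HSP90, -0.55 ± 0.26. FKBP4 read 10.3, 11.23 and 11.24 in CpG ascites, against 11.41, 11.61 and 11.4 in saline ascites. Its lowest value thus lay on CpG ascites replicate 1, the array that stood apart, where FKBP15 had its highest value, 8.96. The parvulin PIN4 had a log2 change of 0.08 ± 0.20.

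The partners of PPIB in the endoplasmic reticulum had values close to saline. Of 11 measured members of its chaperone complex, which includes HSP90B1, HSPA5, PDIA4 and P4HB, 5 were lower and 6 higher. At the brightest probe of each gene, their changes ranged from -0.20 to 0.18 on the log2 scale around a median of 0.00012. None of these 11 passed the test, and 0 had groups that did not overlap, against 20.7% of all tested probes. A second HYOU1 probe, named after its values were seen, lay outside that range at 0.28 ± 0.16 (SE). HSPA5, the chaperone BiP, read 9.37, 9.67 and 9.31 in CpG ascites, against 9.56, 9.62 and 9.78 in saline ascites. PDIA4, a disulfide isomerase, read 10.43, 10.17 and 10.07 in CpG ascites, against 10.01, 10.10 and 10.02 in saline ascites. Their log2 changes were -0.20 ± 0.15 and 0.18 ± 0.14 (SE), and the groups overlapped for both.

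Of the 10 collagen-modifying genes measured, 4 were lower and 6 higher, with a median of 0.04 and 0 past the test. The groups did not overlap for 1 of the 10 with lower values and 4 with higher values. Over all tested probes these shares were 9.82% and 10.9%, and no test was run over the list. The prolyl hydroxylase gene P4HA2 had 0.48 ± 0.18 (SE) on its brighter probe but 0.03 ± 0.12 on the other, and P3H2, a prolyl 3-hydroxylase, had -0.31 ± 0.13. The direct partners of PPIB were P3H1, at -0.12 ± 0.13, and CRTAP, at -0.80 ± 0.48, both named after their values were seen. CRTAP read 9.02 on CpG ascites replicate 1 and 10.77 and 11.05 on the other CpG arrays, against 11.24, 10.91 and 11.09 in saline ascites, while its second probe had a change of 0.20 ± 0.14. The low CRTAP value thus lay on the array that stood apart and on 1 of its probes. Of 11 genes of the unfolded protein response, 9 had lower and 2 higher values, with a median log2 change of -0.11 and 0 past the test. DNAJB9, a cochaperone of HSPA5, had -0.30 ± 0.15 and SEL1L, of the degradation machinery, -0.34 ± 0.18, whereas XBP1, a transcription factor of this response, and singled out after its values were seen, had -0.21 ± 0.12.

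Partners of the other cyclophilins were read the same way. Of 13 measured HSP90 and cochaperone genes, the setting of PPID, 8 had lower and 5 higher values, with a median of -0.23 and 0 past the test, and the median was -0.08 without CpG ascites replicate 1. SUGT1, an HSP90 adaptor, read 9.46, 9.57 and 9.31 in CpG ascites, against 9.84, 9.83 and 9.73 in saline ascites, a log2 change of -0.35 ± 0.13 (SE, adjusted p = 0.330, limma). HSPA8, the constitutive HSP70, had -0.40 ± 0.16 and -0.41 ± 0.14 on its 2 probes (adjusted p = 0.371 and 0.306, limma).

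Of 12 measured genes of the U4/U6 and tri-snRNP setting of PPIH, 4 were lower and 8 higher, with a median of 0.06 that was 0.12 without CpG ascites replicate 1 and 0.15 without CpG ascites replicate 2. PRPF3, a U4/U6 protein, had 0.44 ± 0.16 (SE) and PRPF31, which binds U4, 0.36 ± 0.17. Of 13 genes around PPIL1 and PPIE, 5 were lower and 8 higher, with a median of 0.02 that was -0.08 without CpG ascites replicate 1. BCAS2, of the PRP19 complex, had -0.74 ± 0.23 on its brighter probe and -1.31 ± 0.21 on the other (adjusted p = 0.286 and 0.122, limma), and RBM22, of the activated spliceosome, had -0.26 ± 0.11. The scaffold SNW1, to which PPIL1 binds, was named for that role after its values were seen and had 0.06 ± 0.18. None of the genes in either splicing list passed the test.

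Of 13 genes of the mitochondrial permeability setting of PPIF, each at its brightest probe, 3 were lower and 10 higher, with a median of 0.04 and 0 past the test. HK2, a hexokinase that binds the outer mitochondrial membrane, had -0.43 ± 0.12 (SE, adjusted p = 0.264, limma) on its brighter probe but -0.09 ± 0.24 on the other, and the chaperone gene TRAP1 had 0.18 ± 0.11. SLC25A3 had 0.07 ± 0.11 on its brightest probe and -0.05 ± 0.14 and -1.28 ± 0.68 on the others. TSPO had -0.10 ± 0.14 on its brighter probe and -1.03 ± 0.77 on the other. SLC25A3 and TSPO were named after their values were seen. The calcineurin group holds the target of the cyclosporin and cyclophilin A complex and BSG, the surface receptor of secreted cyclophilins. Of its 10 measured genes, each at its brightest probe, 7 were lower and 3 higher, with a median of -0.14 and 0 past the test. The catalytic subunit gene PPP3CA had -0.68 ± 0.22 on its brighter probe and -0.18 ± 0.23 on the other, and the regulatory subunit gene PPP3R1 -0.33 ± 0.14. NFATC3, named after its values were seen, had 0.24 ± 0.17 on its brightest probe. Its further probes had 0.50 ± 0.26 and 0.68 ± 0.21 (adjusted p = 0.464 and 0.283, limma). BSG read 9.82, 10.47 and 11.17 in CpG ascites, against 10.87, 10.82 and 10.92 in saline ascites, and its groups overlapped. It was named for its role after its values were seen.

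Genes commonly used as references were read beside the family. Of 12 measured, 3 had lower and 9 higher values, and 0 passed the test. The median of their log2 changes, each at the brightest probe, was 0.14 and the range -0.39 to 0.38. Further probes of YWHAZ, at -0.56 ± 0.40 (SE), and of ACTB, at 0.44 ± 0.15, lay outside that range. Both were named after their values were seen. RPL13A, a ribosomal protein gene, had 0.38 ± 0.14 (SE) and TFRC, the transferrin receptor gene, -0.39 ± 0.17. The PPIA change of 0.05 lay within the range, and the PPIB difference of -1.44 lay below it. Since PPIB was picked for its fall in this contrast, its place outside the range is a description only.

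**Figure D3:**
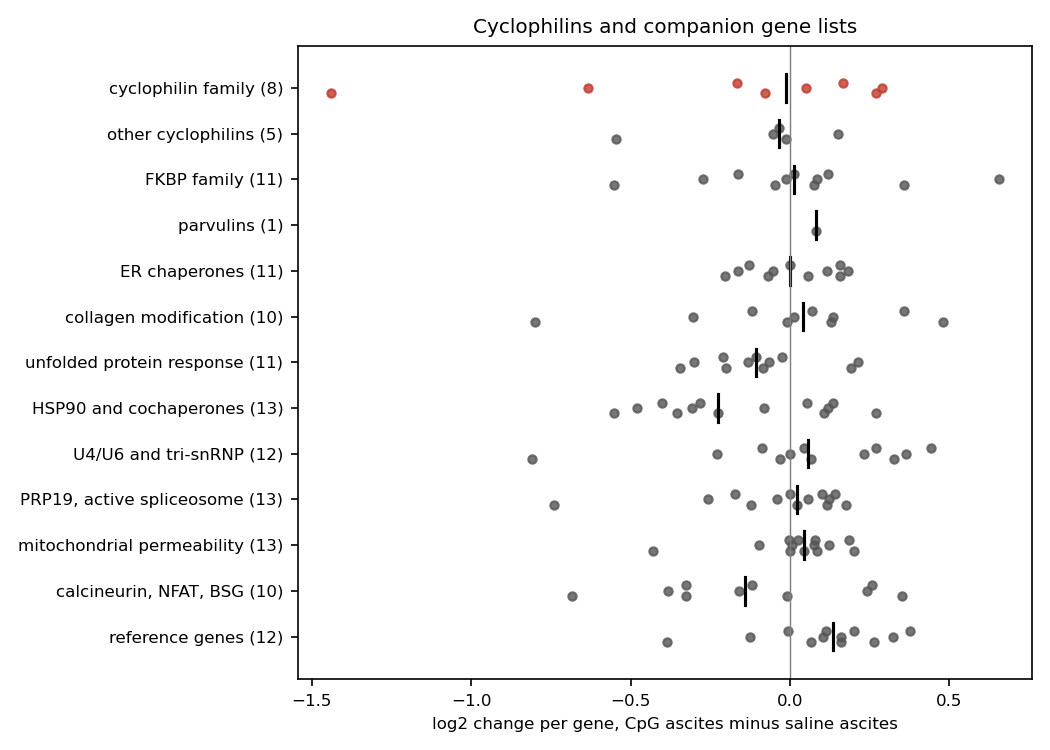
Log2 change in CpG ascites minus saline ascites (x axis) of each measured gene, 1 point per gene, in the cyclophilin family (red) and 12 companion lists (grey), with the number of genes measured in brackets and a black bar at the median. The family's lowest point is PPIB at -1.44 and the next is PPID at -0.63, and the medians of all rows lie between -0.23 and 0.14.

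The 5 genes whose pattern over the 6 arrays was most like that of PPIB, out of 9210 ranked by Pearson correlation, were RPL26, ANXA3, FCGR3B, CLSPN and SPAG1, with r from 0.984 to 0.991. These correlations cover both groups at once, so a gap between the groups enters them, and they are given as a description. RPL26, a ribosomal protein gene, read 13.31, 13.37 and 13.36 in CpG ascites, against 13.61, 13.56 and 13.54 in saline ascites. ANXA3, an annexin gene, read 10.69, 10.82 and 10.73 in CpG ascites, against 11.14, 11.22 and 11.10 in saline ascites. SPAG1, a cochaperone of dynein arm assembly, read 10.70, 10.87 and 10.78 in CpG ascites, against 11.46, 11.30 and 11.36 in saline ascites. All 3 were tight within each group, and their log2 changes of -0.23, -0.40 and -0.59 were smaller than that of PPIB. FCGR3B, an Fc receptor gene of neutrophils, and CLSPN, a replication checkpoint gene, were above background on no CpG array and on all 3 saline arrays. Both passed the detection filter through the saline arrays only. Among the relatives, the correlation with PPIB was highest for PPID, at 0.61, ranked 1549 of 9210, and lowest for PPIH, at -0.86, ranked 8744.

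**Figure D4:**
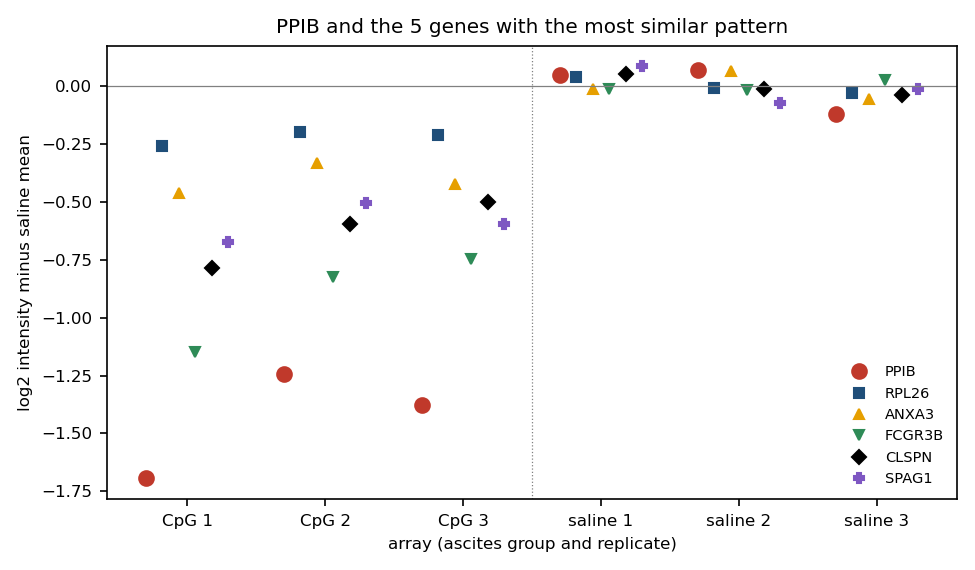
Log2 intensity minus each gene's saline mean (y axis) on the 6 arrays (x axis) for PPIB and the 5 genes with the highest correlation to it. PPIB lies at -1.70 to -1.24 on the CpG arrays, and the other 5 genes lie nearer to 0 there.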

How the data were processed

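Per the labels' protocols, total RNA was extracted with Trizol, purified on columns with DNase I and turned into biotinylated cRNA. BeadStudio (version not given in the sources used here) made the tables, per the submitters' processing notes. The deposited probe intensity is non-normalized per the file headers, which also give a detection p-value per probe and array. The authors' second deposited table is a processed intensity with the same ranks (Spearman 1) and a median of 121 on every array. How that table was normalized is not stated in the labels.

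Intensities were corrected with the neqc function of limma 3.58.1 (R 4.3.3), with background inferred from the detection p-values, offset 16, quantile normalization and a log2 scale. Kept were probes with a detection p under 0.01 on at least 3 of 6 arrays, 13713 in all. The platform annotation gave 1 symbol to 28097 probes, several to 13 and none to 20691, and gene numbers were found in the RefSeq table for 28058. Groups were compared with lmFit and eBayes, with no covariate, two-sided, as CpG ascites minus saline ascites, with Benjamini-Hochberg adjustment across the 13713 probes. The fit was also run on simulated data with independent normal noise, as a check of the code, and no result given here rests on it. Same-numbered samples did not deviate together (r of -0.10, 0.01 and -0.02), so the numbers were not taken as pairs.

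The members, the 12 companion lists and the settings were chosen with earlier results of these data known. All member probes are named, with up to 2 genes of smallest p from each list and the 5 genes most like PPIB. Any other gene is marked as chosen after its values were seen or is named without values. RefSeq upstream sequence (GRCh38.p14) was matched by symbol for 8 of the 10 genes. With 3 arrays a group, precision is limited by their number.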

Additional observations from a re-analysis of the deposited data

How the results depend on the processing

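The PPIB difference stayed between -1.54 and -1.31 over the 15 alternatives run for it, which were another background correction, none, median scaling, the authors' values, other filters, a mean-variance trend, array weights, a replicate block and each array left out. It was -1.44 with the replicate block, as without it, since both groups hold the same replicate numbers, and the block changed no call. Of 149 values of the relatives' probes under these alternatives, 0 passed the threshold and 3 had the opposite sign: PPIA at -0.0027 without CpG ascites replicate 3 and -0.0033 without saline ascites replicate 2, and the brighter PPIC probe at 0.0059 without CpG ascites replicate 1, in a range of -0.12 to 0.0059 with 1 array left out. The dimmer PPIG probe has no value where detection on all 6 arrays was required.

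The number of probes called over the whole array was 0 in each direction with all 6 arrays. It was 1 lower with no background correction, 1 lower with the authors' values and 14 lower with a mean-variance trend. With 1 array left out it ran from 0 to 18 lower and from 0 to 3 higher, the highest counts being those without CpG ascites replicate 1. The cause was not tested.

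The median log2 change of the cyclophilin genes was -0.01. It was 0.059 with median scaling, 0.11 with no filter on dim probes and -0.090 with the mean of all kept probes of a gene, and -0.06 to 0.04 with 1 array left out, so it has no settled sign. For the relatives alone it was 0.05, with 0.12 under median scaling and 0.17 with no filter, which adds PPIF and PPIL2, and -0.0033 to 0.08 with 1 array left out. Over all alternatives the relatives' median ran from -0.013 to 0.17. The medians of 7 companion lists also took both signs: the 1 parvulin ran from -0.07 to 0.29, the FKBP family ran from -0.10 to 0.10, the chaperone complex of PPIB from -0.12 to 0.09, and the collagen, PRP19, calcineurin and further cyclophilin lists did likewise. The unfolded protein response list stayed between -0.13 and -0.01. Parvulins had no gene detected on all 6 arrays. A chip block was not run, since the columns name no chip.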
